A study of Homo sapiens with 42 samples.

Results

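Open chromatin in MCF10A cells given TGFB (transforming growth factor beta) together with EGF (epidermal growth factor) was compared with that in cells given EGF alone. MCF10A is a non-tumorigenic human mammary epithelial cell line. The comparison was set by the treatment labels and held 6 TGFB + EGF libraries and 8 EGF libraries of the 42 ATAC-seq libraries analysed. At each of 24H and 48H there were 3 TGFB + EGF libraries (A to C) and 4 EGF libraries (A to D). ATAC-seq uses a transposase that cuts accessible DNA, and each library was deposited as a list of peaks on the human genome build hg38.

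The cultures had been held for 18 h in medium with horse serum but no EGF, on collagen-1-coated plates, before ligand was added in fresh medium. The EGF groups received 10 ng/ml EGF, and the TGFB + EGF groups received 10 ng/ml TGFB with EGF. The other groups used below are CTRL, sampled at 0 h before any ligand, and cells given PBS, HGF, OSM or IFNG + EGF. Nothing in the labels states that replicates were separate cultures, although the study's methods describe biological replicates. The p-values measure only the spread between these samples.

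TGF-beta ligands bind paired serine/threonine kinase receptors, which phosphorylate SMAD2 and SMAD3. These join SMAD4, enter the nucleus and bind short DNA elements, mostly alongside other factors such as AP-1, TEAD and RUNX proteins that hold enhancers open. In epithelial cells the pathway is known for arresting growth, for raising matrix genes such as FN1, and for driving epithelial-mesenchymal transition.

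The letters of the SMAD palindrome are shown first because sites with them stood higher in every TGFB + EGF library than in any EGF library. The SMAD palindrome searched was GTCTAGAC, which reads the same on both strands. The SMAD CAGA box searched was CAGACA, on either strand, and the palindrome does not contain it. The 6 windows below were taken from hg38 (plus strand, 5′ to 3′, 201 bases centred on the site's summit) with the palindrome in capitals. They are 6 of the 8 sites that hold the palindrome, had a peak in at least 3 TGFB + EGF libraries and had none in any EGF library.
LYSMD2 window, chr15:51727670-51727870: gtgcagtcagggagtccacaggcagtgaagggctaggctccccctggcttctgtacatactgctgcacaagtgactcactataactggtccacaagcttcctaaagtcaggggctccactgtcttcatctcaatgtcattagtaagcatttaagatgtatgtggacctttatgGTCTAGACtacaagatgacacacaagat
TBC1D1 window, chr4:38030108-38030308: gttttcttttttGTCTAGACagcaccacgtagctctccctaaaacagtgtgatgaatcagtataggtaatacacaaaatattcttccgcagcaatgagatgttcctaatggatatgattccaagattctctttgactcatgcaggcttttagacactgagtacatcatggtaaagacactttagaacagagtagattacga
MTUS2 window, chr13:28798160-28798360: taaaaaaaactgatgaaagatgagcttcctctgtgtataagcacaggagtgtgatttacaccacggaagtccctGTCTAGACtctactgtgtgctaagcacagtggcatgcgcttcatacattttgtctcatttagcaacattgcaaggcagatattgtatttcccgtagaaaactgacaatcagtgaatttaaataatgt
PELI2 window, chr14:56272063-56272263: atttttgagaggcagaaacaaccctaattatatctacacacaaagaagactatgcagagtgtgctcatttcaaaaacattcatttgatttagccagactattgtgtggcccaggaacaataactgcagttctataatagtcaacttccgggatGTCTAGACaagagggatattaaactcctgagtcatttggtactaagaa
PARN window, chr16:14511364-14511564: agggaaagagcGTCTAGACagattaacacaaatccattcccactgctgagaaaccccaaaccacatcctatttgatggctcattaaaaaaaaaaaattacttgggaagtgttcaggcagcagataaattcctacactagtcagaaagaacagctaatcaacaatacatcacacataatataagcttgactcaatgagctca
WDR54 window, chr2:74425670-74425870: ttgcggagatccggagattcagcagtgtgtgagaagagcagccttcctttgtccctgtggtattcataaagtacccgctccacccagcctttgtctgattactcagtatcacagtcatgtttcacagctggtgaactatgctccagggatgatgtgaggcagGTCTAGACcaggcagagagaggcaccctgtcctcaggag
The LYSMD2, TBC1D1, PELI2 and PARN windows lie in introns of those genes, and the MTUS2 and WDR54 windows are intergenic. The start site nearest to the TBC1D1 window is that of PTTG2, 69.8 kb away. AP-1's TGANTCA was also found in the LYSMD2, TBC1D1, PELI2 and PARN windows, the CAGA box in the WDR54 window, and TEAD's GGAATG and the RUNX pattern in the PARN window.

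The next 4 windows hold the palindrome at sites that ranked among the strongest peaks more often with TGFB + EGF than with EGF. That of ISM2 was open in 4 of 8 EGF libraries and the others in 7 or 8, so they show a change of rank and not of presence.
TP63 window, chr3:189572361-189572561: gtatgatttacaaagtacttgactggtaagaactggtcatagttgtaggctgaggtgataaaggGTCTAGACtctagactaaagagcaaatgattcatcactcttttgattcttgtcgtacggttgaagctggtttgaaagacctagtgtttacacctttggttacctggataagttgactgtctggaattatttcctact
CDK14 window, chr7:90579300-90579500: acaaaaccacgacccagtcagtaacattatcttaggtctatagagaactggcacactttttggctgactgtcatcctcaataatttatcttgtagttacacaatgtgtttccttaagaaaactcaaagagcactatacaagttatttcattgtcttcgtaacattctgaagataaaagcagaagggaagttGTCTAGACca
BTBD16 window, chr10:122301233-122301433: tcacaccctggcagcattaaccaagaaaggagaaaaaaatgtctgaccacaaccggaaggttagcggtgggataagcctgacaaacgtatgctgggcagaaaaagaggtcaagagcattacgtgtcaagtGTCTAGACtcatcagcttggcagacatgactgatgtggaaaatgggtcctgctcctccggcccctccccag
ISM2 window, chr14:77486387-77486587: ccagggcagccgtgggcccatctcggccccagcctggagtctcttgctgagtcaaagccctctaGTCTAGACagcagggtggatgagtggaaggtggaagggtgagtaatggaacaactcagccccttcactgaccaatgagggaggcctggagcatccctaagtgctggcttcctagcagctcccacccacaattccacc
The BTBD16 and ISM2 windows are intronic and the TP63 and CDK14 windows intergenic. Here a window is named by its host gene or, between genes, by the gene with the nearest start site, and the gene that a site acts on is not known.

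Most TGFB + EGF libraries held few peaks. At 24H they held 108125, 7540 and 5760 peaks, and at 48H 22651, 4217 and 56140. EGF libraries held 44099 to 103106 peaks at 24H and 75217 to 88211 at 48H. TGFB + EGF 24H A and 48H C were therefore the only 2 of the 6 with more than 30000 peaks, and they are called the deep TGFB + EGF libraries below, the other 4 the few-peak ones. The mean difference in log10 peak number was -0.64 (exact permutation test within time, two-sided, p = 0.0106, adjusted p = 0.0127 over 6 library measures), and 5 of 6 libraries lay below every EGF library of their time. The study's own quality table marked the other 4 TGFB + EGF libraries and EGF 24H B as failing ATAC-seq quality control, which was set on the fraction of reads in peaks. The study adds that libraries failing on this measure lacked the regular nucleosome pattern in their fragment lengths. It proposes that too much transposase per cell was the likely reason, which was not tested here. The files hold no read counts, so depth is unknown and cannot be told apart from a loss of open sites. All 14 libraries carry 1 preparation prefix, and within the 3 sequencing lanes that held both groups the difference in log10 peak number ran from -1.01 to -0.21. These and the later lane differences take 24H and 48H libraries together, and 1 of the lanes held 1 EGF library. They are therefore not comparisons within time.

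The strongest peaks of each library, taken as the 3500 with the highest −log10 q, were compared because that number exists in every library. In the 48H B library they make up most of its 4217 peaks. With TGFB + EGF they lay farther from transcription start sites. Their median distance was 25.7, 87.7 and 86.1 kb in TGFB + EGF 24H A, B and C and 43.4, 118.9 and 23.9 kb at 48H. In EGF libraries it was 12.5, 22.7, 11.02 and 15.0 kb at 24H and 6.59, 6.18, 4.65 and 15.5 kb at 48H. All 6 TGFB + EGF libraries lay above every EGF library of their time, with a mean difference of 52.5 kb (exact permutation test, two-sided, p = 0.000816, adjusted p = 0.00245). Over the deep libraries alone the difference was 12.99 kb, and within the 3 shared lanes it was higher with TGFB + EGF in each. Of the 4 few-peak libraries without TGFB, OSM 48H B (49.1 kb) and IFNG + EGF 48H C (69.0 kb) also lay farther out than both deep TGFB + EGF libraries, and PBS 48H C (3.65 kb) and IFNG + EGF 24H B (17.2 kb) did not. The part of peak number in this difference was not tested.

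**Figure D1:**
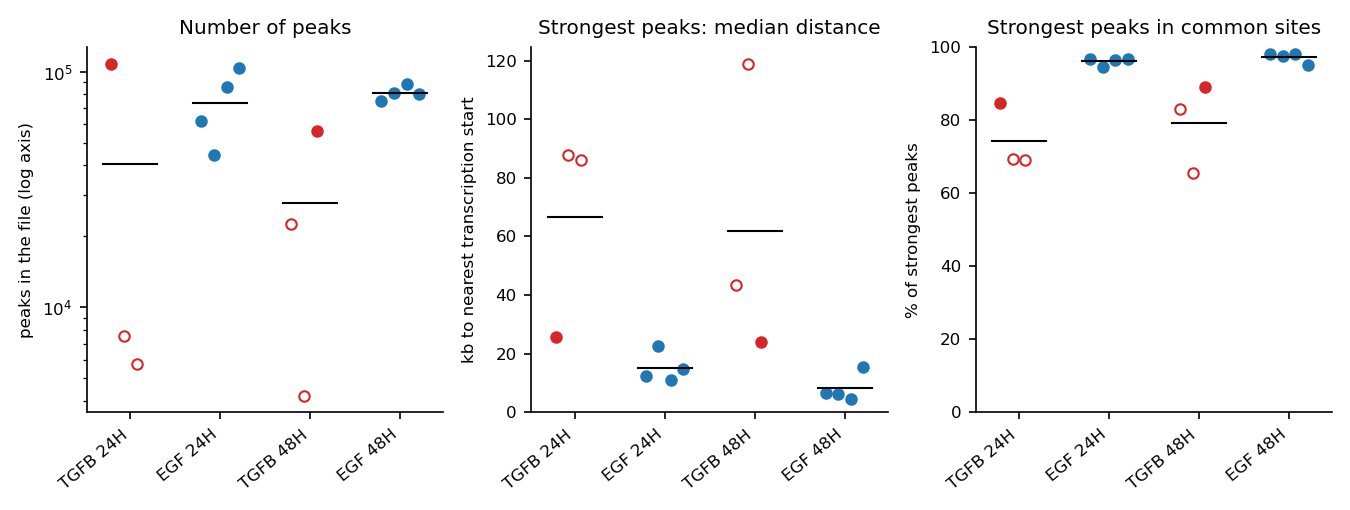
Number of peaks in each library (y axis, log scale), median distance from the 3500 strongest peaks of each library to the nearest transcription start site (y axis, kb), and the share of those peaks in sites open in at least 35 of 42 libraries (y axis, percent), by group and time. Filled circles are libraries with more than 30000 peaks, open circles the others, and bars group means. All 6 TGFB + EGF libraries sit above the EGF libraries of their time in distance and below them in share.

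Fewer of the strongest peaks fell in sites that nearly every library shares. The share in sites open in at least 35 of the 42 libraries was 84.8%, 69.3% and 69.0% in TGFB + EGF 24H A, B and C and 83.1%, 65.6% and 89.2% at 48H, against 94.5% to 98.0% in the EGF libraries. The groups did not overlap, and the mean difference was -19.8 percentage points (p = 0.000816, adjusted p = 0.00245, exact permutation test), or -9.66 over the deep libraries. In the few-peak libraries without TGFB it was 92.2% (PBS 48H C), 90.9% (IFNG + EGF 24H B), 62.9% (IFNG + EGF 48H C) and 80.3% (OSM 48H B), the last 2 below both deep TGFB + EGF libraries. The strongest peaks were also lower. Their median fold enrichment over local background, the peak caller's height measure, differed by -5.20 (adjusted p = 0.0122, exact permutation test), with -0.643 over the deep and -7.48 over the few-peak TGFB + EGF libraries. Median peak width over all peaks differed by -135 bp (adjusted p = 0.00980, exact permutation test), with -45.7 bp over the deep libraries. The share of all peaks within 1 kb of a start site differed by -1.32 percentage points and did not pass (p = 0.512, exact permutation test).

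Sites holding the SMAD palindrome were open with TGFB + EGF more often than the libraries' peak numbers set, at both times and in every library. For each of 32 motifs, a motif deviation was computed per library. It is the percent by which the number of open sites with the motif within 100 bp of the summit departs from the number set by the library's own peak number and by how often each of those sites is open across all libraries. Of the 129344 sites open in at least 2 libraries, 299 (0.231%) hold the palindrome, 291 of them more than 1 kb from a start site.

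The palindrome deviation was 29.8, 90.9 and 35.7 in TGFB + EGF 24H A, B and C, and 87.7, 23.4 and 55.2 at 48H. In the EGF libraries it was -5.86, -5.01, -8.08 and -14.2 at 24H and -17.6, -13.9, -14.1 and -8.89 at 48H. Group means were 52.1 ± 33.7 (SD, n = 3) against -8.28 ± 4.14 (n = 4) at 24H and 55.4 ± 32.1 against -13.6 ± 3.59 at 48H. The lowest TGFB + EGF library stood above every EGF library, and none of the other 36 libraries of the series reached it. Libraries with OSM came closest, with a highest value of 18.2.

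The mean difference was 64.7 (60.4 at 24H and 69.0 at 48H). The exact permutation test within time gave p = 0.000816, the smallest that its 1225 arrangements allow, with an adjusted p of 0.00373 over the 32 motifs. The difference was 53.4 over the deep libraries alone and 53.96 over the libraries that passed the study's quality control. Within the 3 shared lanes it ran from 46.7 to 72.9. The 4 libraries without TGFB that held 30000 peaks or fewer (1 with PBS, 2 with IFNG + EGF and 1 with OSM) ranged from -41.0 to 4.59. All 4 stood below the lowest TGFB + EGF library. The numbers behind these values are small in the few-peak libraries. In TGFB + EGF 24H A, B and C, 226, 23 and 12 palindrome sites were open, and 71, 8 and 144 at 48H, against 68 to 149 in EGF libraries.

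**Figure D2:**
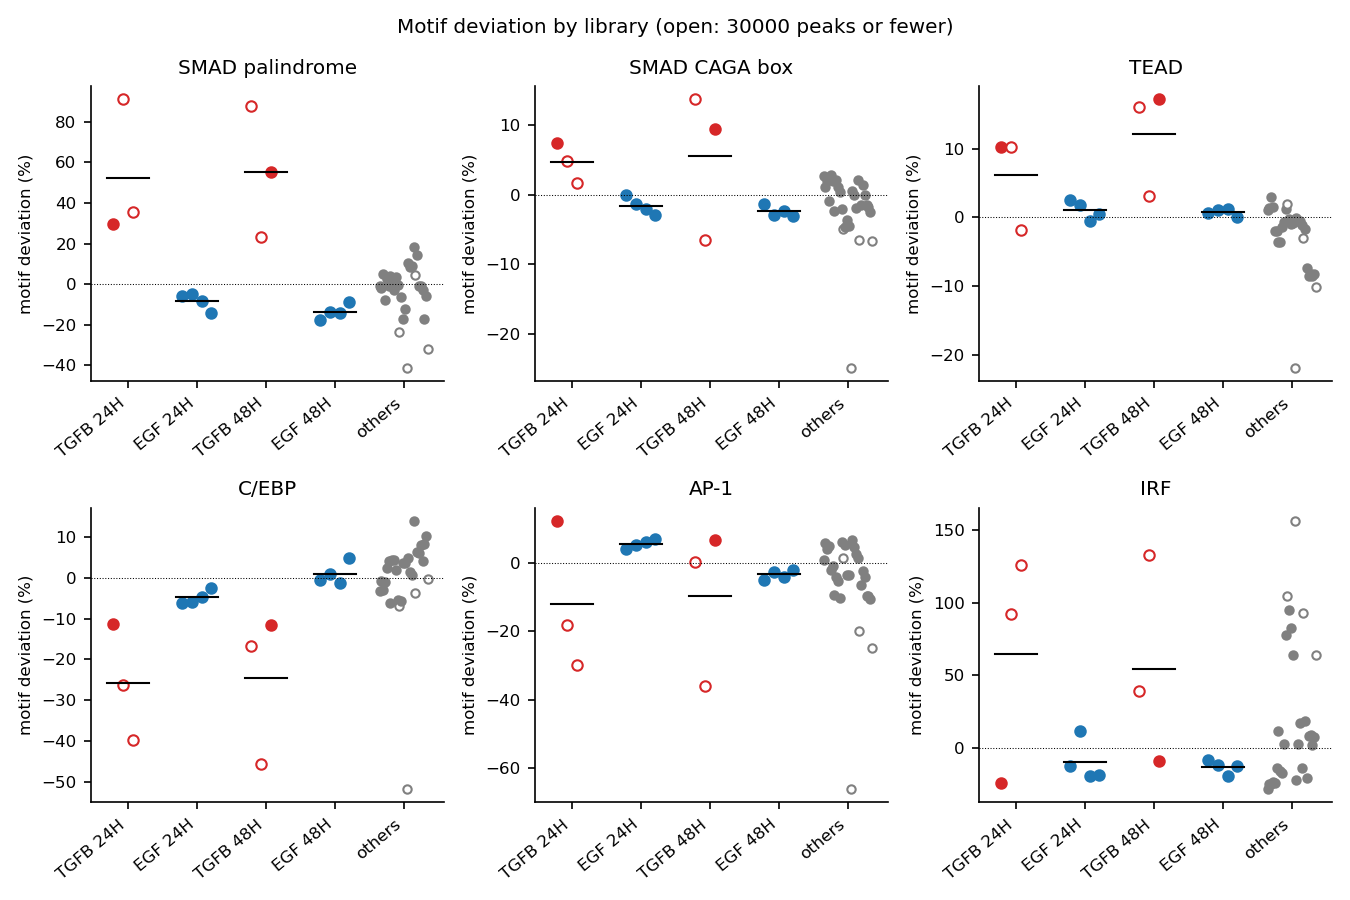
Motif deviation in percent (y axis) for 6 motifs in each TGFB + EGF library, each EGF library and the 28 other libraries (grey), by time. Filled circles have more than 30000 peaks, open circles fewer, and bars are group means. The palindrome values of all 6 TGFB + EGF libraries stand above all other libraries, and those for C/EBP stand below all EGF libraries.

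Of the 32 motifs, 5 were higher (15.6%) and 15 lower (46.9%) with TGFB + EGF at an adjusted p below 0.05. The higher ones were the palindrome, the CAGA box, the TEAD pattern, the IRF pattern and ETS letters in reversed order. This last pattern has no known factor and was searched as 1 of 5 control patterns. The CAGA box and TEAD differences were smaller than that of the palindrome and less even. A further SMAD pattern, the GC-rich GGCGCC in 5.12% of sites, ran the other way. Its deviation was -1.48, -23.6 and -9.92 with TGFB + EGF at 24H and -13.5, -32.8 and -4.62 at 48H, against -5.21 to 5.93 in EGF libraries. The mean difference was -15.6 (adjusted p = 0.00435, exact permutation test) and -4.35 over the deep libraries.

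CAGA boxes lie in 16.9% of all sites. Their deviation was 7.37, 4.86 and 1.66 in TGFB + EGF at 24H and 13.7, -6.51 and 9.44 at 48H, against -3.00 to -0.067 in EGF libraries. The mean difference was 7.06 (adjusted p = 0.0261, exact permutation test), with 5 of 6 libraries above every EGF library of their time and 48H B below. Its letters in reversed order (ACAGAC) gave -1.21 over all libraries but 6.78 over the deep ones, where the box itself gave 10.4. Among strongest peaks alone the CAGA box did not pass (adjusted p = 0.237). It also missed the threshold in 7 of the 14 runs that each left out 1 library, with an adjusted p of up to 0.0754. These were the runs without TGFB + EGF 48H A or C, EGF 24H D or any EGF 48H library.

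TEAD factors carry the output of YAP and TAZ. Their pattern, in 15.9% of sites, gave 10.3, 10.2 and -1.77 at 24H and 16.0, 3.17 and 17.1 at 48H, against -0.51 to 2.47 in EGF libraries. The mean difference was 8.24 (adjusted p = 0.0230, exact permutation test) and 12.8 over the deep libraries. Its reversed letters (GTAAGG) gave -5.16. Leaving out TGFB + EGF 24H B took the adjusted p to 0.0542.

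AP-1, a dimer of FOS and JUN proteins, had its pattern in 37.1% of all sites. The AP-1 deviation split by peak number. It was 12.2 and 6.68 in the deep TGFB + EGF libraries, -35.8 to 0.14 in the other 4, and -5.05 to 6.89 in EGF libraries. The mean difference was -11.9 and did not pass (p = 0.149, exact permutation test), with 8.38 over the deep libraries. Reversed AP-1 letters gave 10.7 over the deep libraries, a value as large as that of the pattern itself. RUNX gave -4.12 over all (adjusted p = 0.507) and 8.35 over the deep libraries.

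Sites with the C/EBP pattern TTGCNNAA, bound by bZIP factors of epithelial differentiation and acute-phase genes, were open less often. Their deviation was -11.4, -26.2 and -39.8 with TGFB + EGF at 24H and -16.7, -45.6 and -11.5 at 48H, against -6.13 to 4.74 in EGF libraries. No TGFB + EGF library overlapped the EGF libraries. The mean difference was -23.3 (adjusted p = 0.00373, exact permutation test) and -9.58 over the deep libraries. Of the 36 libraries without TGFB, 1 lay below the highest TGFB + EGF library, so a low value also occurred without TGFB. This was the few-peak library IFNG + EGF 48H C, at -51.7. The few-peak libraries IFNG + EGF 24H B (-7.03), OSM 48H B (-3.75) and PBS 48H C (-0.28) lay above every TGFB + EGF library.

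ATF4, FOX, SOX, KLF and E-box (CACGTG) patterns were likewise below every EGF library of the same time in 6 of 6 libraries. Their mean differences were -19.3, -8.82, -21.9, -15.4 and -13.3, each with an adjusted p of 0.00373 (exact permutation test). Over the deep libraries these differences were -6.75, -7.87, -6.64, -5.21 and -5.99. FOX was the only one of the 5 whose deep-library difference was near its value over all libraries. Low FOX values also occurred without TGFB. The IFNG + EGF libraries (-26.4 to -7.68) all lay below the deep TGFB + EGF libraries (-6.77 and -1.92). Of the 36 libraries without TGFB, 11 lay below the highest TGFB + EGF library.

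The IRF and reversed ETS results differed between few-peak and deep TGFB + EGF libraries. IRF deviations were 39.2 to 133 in the 4 few-peak TGFB + EGF libraries, and 64.3 to 156 in the 4 few-peak libraries without TGFB. Of those 4, 2 received IFNG + EGF, and the 4 deep IFNG + EGF libraries were also high, at 63.8 to 94.7. In the deep TGFB + EGF libraries they were -24.0 and -9.04. The IRF difference of 70.6 (adjusted p = 0.0261, exact permutation test) changed sign without the 4 few-peak libraries, and it missed the threshold in 8 of the 14 runs without 1 library. Reversed ETS letters behaved alike, at 35.7 to 167 in few-peak and -6.15 and 0.42 in deep TGFB + EGF libraries.

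Peak height at the palindrome sites was also compared, with a missing peak counted as 0. A site open in both deep TGFB + EGF libraries and in no EGF library therefore counts as higher. That was so for 32 palindrome sites and for 1563 of all sites. Fold enrichment in both deep TGFB + EGF libraries exceeded that in every EGF library at 60 of the 299 palindrome sites (20.1%), against 2.78% of all 129344 sites. Both were lower than every EGF library at 3 palindrome sites (1.00%), against 0.803% of all sites. CAGA box sites reached 5.02% (4.20% for its reversed letters), TEAD sites 5.31% (3.43% reversed), AP-1 sites 3.30% and C/EBP sites 2.03%. By time, 24H A stood above every EGF 24H library at 56.5% of palindrome sites against 27.5% of all sites, and 48H C above every EGF 48H library at 25.1% against 6.34%. These shares come from the same libraries as the deviations, restate presence in part and are a description.

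The 6 printed windows without an EGF peak carried modest to high peaks. The LYSMD2 site (chr15:51727399-51727953, 9.89 kb from its start site) had fold enrichments of 7.92, 4.03 and 4.20 at 24H, none in 48H A and B, and 3.83 in 48H C. No other library of the 42 had a peak there. The TBC1D1 (chr4:38030041-38030384), MTUS2 (chr13:28797940-28798534) and PELI2 (chr14:56271889-56272353) sites were likewise open in TGFB + EGF libraries alone, in 24H A, 48H A and 48H C. Fold enrichments there were 10.985, 4.49 and 5.18 at TBC1D1, 10.3, 5.44 and 5.21 at MTUS2, and 6.83, 5.14 and 5.56 at PELI2. The PARN site (chr16:14511205-14511927), at 11.8, 3.86 and 8.30 in those libraries, was open in 4 of 4 CTRL libraries, and the WDR54 site (chr2:74425422-74425939) in 3. Those 2 were therefore open before ligand was added as well.

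The TP63 site (chr3:189572160-189572837) lies 58.9 kb from a start site of TP63, the basal epithelial master regulator. Its fold enrichment was 21.1, 5.54 and 5.53 in TGFB + EGF at 24H and 8.95, 5.08 and 13.6 at 48H. In EGF it was 5.50, 5.61, 10.6 and 8.24 at 24H and 3.65, 7.13 and 4.80 at 48H, with no peak in 48H D. The heights overlapped between groups, but the site was among the 3500 strongest peaks in 5 of 6 TGFB + EGF and 0 of 8 EGF libraries.

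**Figure D3:**
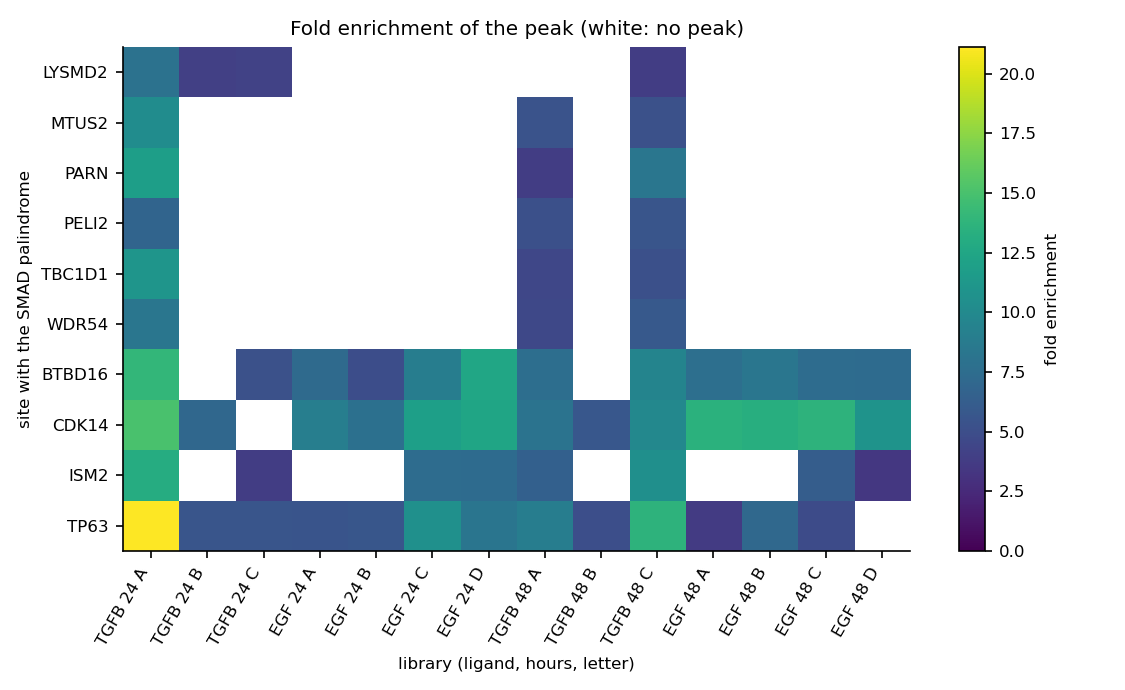
Fold enrichment over local background (colour scale) at the 10 sites whose windows are printed, in each of the 14 libraries. Rows are sites, columns are libraries by group and time, and white means no peak. The upper 6 rows are white in all 8 EGF columns, and the lower 4 are coloured in columns of both groups.

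Few sites were called over all libraries. A limma fit over all 42 libraries and 13 groups, on detection adjusted for each library's overall detection rate, called 3 sites gained (0.00232%) and 0 lost (0.0%) over both times with thresholds of 0.01 for the adjusted p and 0.5 for the difference. At an unadjusted p below 0.05 there were 10066. At 24H alone 1 site was gained (0.000773%) and 0 were lost, and at 48H 20 were gained (0.0155%) and 3 lost (0.00232%). The test of a difference between times called 0 (6694 at an unadjusted p below 0.05). The LYSMD2 palindrome site was 1 of the 3 (difference 0.69, SE 0.094, adjusted p = 0.00315 by limma). A site 240 kb from PLD5 was open in 6 of 6 TGFB + EGF and 0 of 8 EGF libraries but in 4 of 4 CTRL libraries. The remaining one lies at chr1:124562017-124562282, with SRGAP2C as the gene of the nearest start site, and was open in 6 of 6 and 1 of 8. Whether reads map to 1 place only at that site was not tested, so its peaks may not mark an opened site.

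With the deep libraries alone, 1093 sites were gained (0.85% of 128596) and 136 lost (0.106%). This limma fit rests on 1 TGFB + EGF library per time, so its calls are given as a description of those 2 libraries. Of the gained sites 1011 were open in no EGF library and 461 in TGFB + EGF libraries only. They were distal: 14 (1.28%) lay within 1 kb of a start site against 11.4% of all sites tested, and the median distance was 66.2 kb against 35.4 kb. Detection at them averaged 18.6% in CTRL, 5.38% with OSM, 1.24% with PBS, 1.88% with HGF and 2.20% with IFNG + EGF.

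The gained sites held the palindrome, CAGA box and TEAD letters more often than tested sites, and GGCGCC less often. The palindrome was in 26 of 1093 (2.38%) against 0.23% of tested sites, and in 0 of the lost sites. CAGA boxes were in 34.4% of gained, 13.2% of lost and 16.9% of tested sites, with 18.5%, 10.3% and 11.2% for the reversed letters. TEAD was in 31.7%, 10.3% and 15.9%, with 7.87%, 2.94% and 5.89% reversed. AP-1 was in 38.4%, 29.4% and 37.2%, so its share among gained sites was close to that of all sites. GGCGCC was in 0.183% of gained, 4.41% of lost and 5.14% of tested sites (0.185%, 2.36% and 2.73% of the distal ones). C/EBP was in 8.87% of gained, 33.8% of lost and 14.3% of tested sites.

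**Figure D4:**
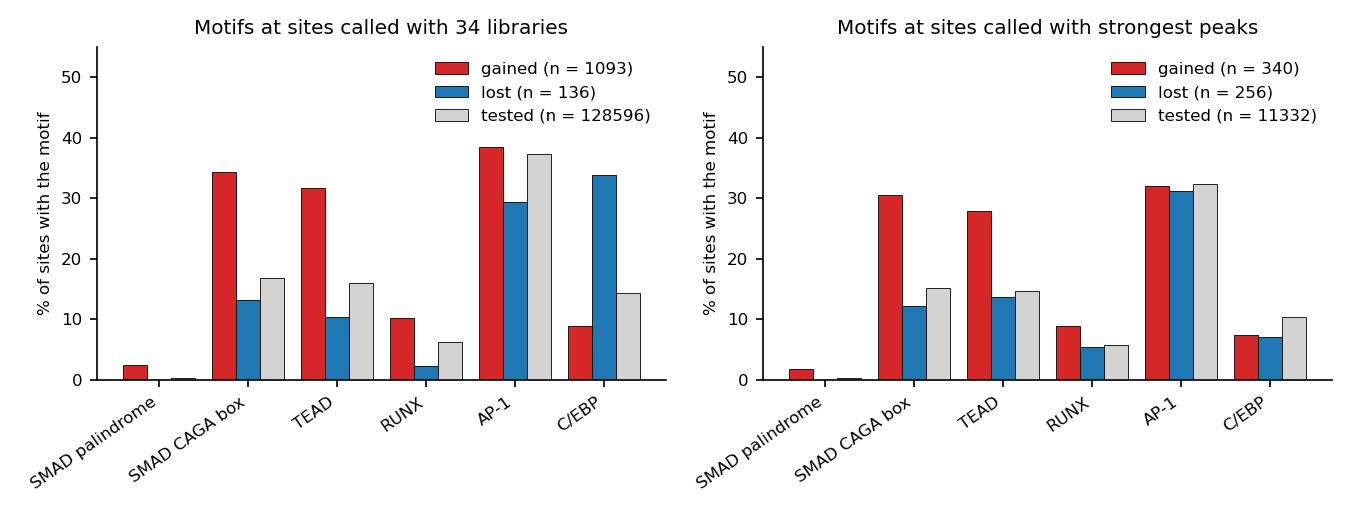
Percent of sites that hold each motif (y axis) among gained, lost and all tested sites, in the fit over libraries with more than 30000 peaks and in the fit of the 3500 strongest peaks. CAGA and TEAD shares are higher in gained than in tested sites in both fits, and the C/EBP share is highest in the lost sites of the deep libraries.

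The gained sites named first each had a difference of 0.91 and no peak in any EGF or CTRL library. Within the fit over the deep libraries, each had a peak in both deep TGFB + EGF libraries and in no other library. Their difference is therefore set by that pattern and is the same at each. In an intron of PALLD, which encodes the actin-binding protein palladin, fold enrichment was 16.7 in 24H A and 9.13 in 48H C, with 5.57 in 48H A. In an intron of WNT2, a secreted WNT ligand, it was 13.01 and 5.57, with 4.88 in 24H C and 4.94 in 48H A. The other leading gained sites lay near TBCA, PDC, LIPK, KY, TENM3, CADM2, DUSP10 and LMCD1 and in an intron of SH3BP5L. The DUSP10 site (a MAP kinase phosphatase) held 12.7 and 5.87, and 3.83 in 48H A. The LMCD1 site (chr3:8497680-8497916, 4.04 kb from the start site) held AP-1, CAGA box and TEAD patterns, with 8.75 and 6.43, and 4.15 in 48H A. An intron of CDH2, encoding N-cadherin, had a site at chr18:28065292-28065946 with CAGA box and TEAD patterns, at 14.7 and 8.28 and absent in the few-peak libraries.

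Lost sites in the deep libraries were open in all 8 EGF and 4 CTRL libraries for those named. None of the 6 TGFB + EGF libraries had a peak at them. The GPR141 site had a median EGF fold enrichment of 13.7 (6.72 to 17.5) and held C/EBP and FOX patterns. The PALMD site reached 11.5 (5.39 to 15.3), and those near KIDINS220 and DIAPH2 8.65 and 8.34. An intron of MMP13, a collagenase gene, held a lost site at chr11:102950569-102951263 with a C/EBP pattern, at 7.91 (4.68 to 10.1). Sites near GJA5 and MAP2K1 held 6.79 and 7.79. The site 2.07 kb from ID1, an inhibitor of differentiation that TGF-beta represses in epithelial cells, was low throughout, at 2.13 to 3.55 in EGF libraries (chr20:31606980-31607753, difference -0.98). Taken over all 136 lost sites, a site had a peak in 100% of CTRL libraries on average, 51.2% with PBS and 77.5% with HGF. With OSM it was 42.2% and with IFNG + EGF 44.1%, so peaks were also often missing there without TGFB.

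Among the strongest peaks, 340 of 11332 sites (3.0%) were gained and 256 (2.26%) lost by limma over all libraries. Here a gain means that a site entered a library's 3500 strongest peaks and not that it opened. A gained site was strong on average in 66.9% of TGFB + EGF libraries (50.7% in deep and 75.0% in few-peak libraries) and in 1.32% with EGF, and 175 of the 340 had a peak in all 8 EGF libraries. A lost site was strong in 92.9% with EGF and 15.8% with TGFB + EGF (31.8% in deep and 7.81% in few-peak libraries), and all 256 still had a peak in both deep TGFB + EGF libraries. The overlap with the calls from the deep libraries' detection was 0 sites. A fit of the strongest peaks on deep libraries alone, added after the data were seen, gave 253 gained and 67 lost, of which 115 and 48 were shared with the fit over all.

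**Figure D5:**
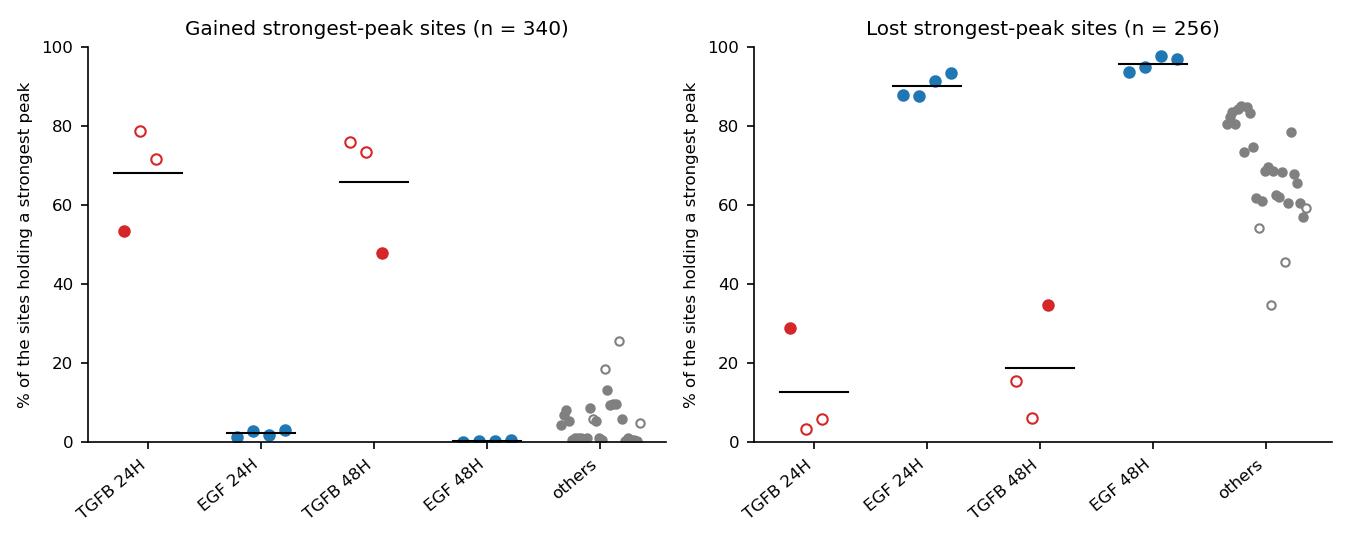
Percent of the 340 gained and the 256 lost strongest-peak sites that were among the 3500 strongest peaks of each library (y axis), by group and time, as chosen by this measure. Filled circles have more than 30000 peaks, open circles fewer, and bars are group means. TGFB + EGF libraries hold 47.9% to 78.8% of gained sites, and the few-peak ones hold the fewest of the lost sites.

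Gained strongest sites were distal, with 4 (1.18%) within 1 kb of a start site and a median distance of 153 kb. Of all sites tested 31.2% were promoter-proximal, with a median of 22.2 kb. Of lost strongest sites 44.1% were promoter-proximal, with a median of 8.04 kb. Median GC content was 43.8% at gained and 56.7% at lost sites. CAGA boxes were in 30.6% of gained, 12.1% of lost and 15.2% of tested sites, TEAD in 27.9%, 13.7% and 14.6%, and the palindrome in 6 of the 340 (1.76%), 0 lost and 0.24% of tested sites. GGCGCC was in 1.76% of gained, 12.1% of lost and 9.35% of tested sites. C/EBP, frequent in the sites lost from the deep libraries, was in 7.35%, 7.03% and 10.4%. NF-Y, a promoter element, was in 4.71%, 20.7% and 12.8%. IRF (11.5% against 4.62% of tested) and reversed ETS letters (12.9% against 7.08%) were also frequent in gained sites, as in the few-peak libraries' deviations.

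The named gained sites were strong in 6 of 6 TGFB + EGF and 0 of 8 EGF libraries (difference 1.00, SE 0.024, adjusted p = 2.12e-25 by limma). Such a pattern leaves no spread within either group. The SE and p therefore do not measure spread between the replicates compared, and they are given as a description of the pattern. An intron of UGGT2, a folding sensor of the endoplasmic reticulum, had fold enrichments of 16.5, 7.96 and 7.31 at 24H and 8.87, 6.42 and 14.1 at 48H, and 4 of 8 EGF libraries had a peak, the highest at 7.79. A site 108 kb from GALNT15, a glycosyltransferase gene, held 10.3, 5.84 and 5.99 at 24H and 7.29, 4.79 and 10.6 at 48H. Its EGF peaks, in 5 of 8 libraries, ran from 4.08 to 6.65. At both sites the deep TGFB + EGF libraries exceeded every EGF library. The site 52.0 kb from PLCB4 did the same, at 25.7 and 19.4 against an EGF maximum of 16.9. The other 3 lie near CNTNAP3B, in a TENM4 intron for which NARS2 has the nearest start site, and 478 kb from RGMA. CNTNAP3B and SPATA31A3 (strong in 3 of 6) belong to multi-copy families on chromosome 9, where reads may be shared between copies. RYR2, ARGLU1, GRHL3 and CDH2 (977 kb away) completed the leading gained sites, each strong in 3 of 6 libraries.

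Lost strongest sites lay often at promoters. The LPIN1 site, 168 kb from its start site, held 14.3 and 11.4, with 4.71 in 48H A, against 11.3 to 20.8 in EGF libraries (difference -1.0, adjusted p = 2.44e-07 by limma). A difference of -1.0 likewise leaves no spread within either group, so that p does not measure spread between their replicates. The site between NFKBIB and SIRT2 was strong in 0 of 6 and 8 of 8. The ADPRHL1 promoter was strong in 1 of 6 and 8 of 8 (difference -0.83, adjusted p = 1.06e-08 by limma), and the MUC1 promoter, of a luminal mucin, in 2 of 6. SLC25A45, GRINA and ERGIC1 sites completed the named set, each with lower median fold enrichment in TGFB + EGF.

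The 25 listed TGF-beta target genes had 344 sites within 50 kb. In the deep libraries 1 was gained (0.291%) and 2 lost (0.581%), against 0.85% and 0.106% of all sites. The lost sites were that near ID1 and 1 at 49.5 kb from TGFBI (chr5:136108074-136108629), open in 0 of 6 and 7 of 8. The start site nearest to the latter is that of SMAD5, 24.5 kb away. TGFBI, an extracellular matrix protein, also had the list's single gained strongest peak, of 42, at 11.8 kb (chr5:136016809-136017483). Fold enrichment there was 8.76 in 24H A and 7.94 in 48H C, against 3.71 to 7.37 in EGF libraries.

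Other well-known targets did not pass. The best-supported site near CCN2, a matricellular growth factor, was open in both deep TGFB + EGF and 1 of 8 EGF libraries (difference 0.80, adjusted p = 0.0948 by limma). Sites near SMAD7 and SKIL, feedback inhibitors of the pathway, had differences of -0.58 and 0.44, and those near PMEPA1, SNAI2 and ITGB6 -0.33, -0.57 and -0.52. Each value is that of the gene's site with the smallest p. For the epithelial cadherin CDH1 and the basal keratin KRT5 the differences were 0.80 and 0.58, neither called.

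The other lists are read against the same shares of all sites in the deep libraries, 0.85% gained and 0.106% lost. With 0 to 4 calls a list, none is described beyond its named sites. Of 183 sites near TGF-beta ligands, receptors and SMADs, 2 were gained (1.09%) and 1 lost (0.546%). The SMAD3 intron site, 12.8 kb from its start, held 7.03 and 4.33 with no EGF peak. A site 40.1 kb from TGFB3, in an intron of IFT43, held 11.4 and 6.97. A TGFBR3 intron site, of the co-receptor betaglycan, was lost, with a peak in 7 of 8 EGF libraries. Near 20 EMT factors and mesenchymal genes, 3 of 168 sites were gained (1.79%) and 0 lost. They were the CDH2 site, a PRRX1 intron site at 7.39 and 3.98, and a site 29.3 kb from FN1 (chr2:215465338-215465575). The FN1 site holds both the palindrome and a CAGA box, and its peaks, at 3.999 and 3.70, were found in the deep TGFB + EGF libraries and in no other library. They were weak, with −log10 q values of 4.01 and 2.62. Each of the 3 sites had a peak in 2 libraries, the fewest that a tested site can have, so its gain is set by that pattern. Fibronectin, the product of FN1, is a classical matrix target of the pathway, but the gene that the site acts on is not known.

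Near matrix genes and matrix-cutting enzymes, 3 of 305 sites were gained (0.984%) and 1 lost (0.328%), the MMP13 site. Of these 3, 2 lie between or within COL4A1 and COL4A2, the paired basement-membrane collagen genes. One of them, in a COL4A2 intron (chr13:110323171-110323586), held a CAGA box and fold enrichments of 6.48 and 5.58, and the other 3.61 and 4.20. A further COL4A2 intron site, 40.6 kb from its start, was a strongest peak in 6 of 6 TGFB + EGF and 1 of 8 EGF libraries. The third gained site, near ITGA2 (integrin alpha-2), held 6.17 and 6.26.

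Epithelial junction genes had 4 of 227 sites gained (1.76%), near LAD1, PKP1 and TJP1 (2 sites, with AP-1 and TEAD patterns), and 1 lost (0.441%) near CLDN7. The lost site lies in an intron of YBX2, 1.41 kb from a YBX2 start site and 30.0 kb from CLDN7. AP-1 and MAF factors had 1 gained (MAF) and 1 lost of 214 (0.467% each), and growth factor response genes 1 and 1 of 193 (0.518% each). The lost site in both lists was the same, 18.8 kb from FOS, an immediate early gene, with a fold enrichment of 3.43 to 4.63 in all 8 EGF libraries and no peak in any TGFB + EGF library. The gained growth-factor site, at 7.95 and 4.72, lay 11.8 kb from AREG, which encodes an EGF receptor ligand. TEAD and YAP target genes had 1 of 165 gained (0.606%), in an AMOTL1 intron with AP-1 and TEAD patterns (8.87 and 7.38), and 0 lost. Strongest peaks lost near listed genes included those at the start sites of EGR1 (0.552 kb) and PTPN14 (0.235 kb), near ZEB2 and in an intron of LAD1. At EGR1, another immediate early gene, the peaks of 24H A (7.06) and 48H C (6.23) were close to the EGF range of 6.32 to 8.29.

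Promoter peaks were found at most basal mammary epithelial markers and at few markers of other cell types. Of 10 basal markers, 6 had a promoter peak in all 8 EGF libraries and 8 in both deep TGFB + EGF libraries, and 1 of 150 sites near the list, close to EGFR, was gained (0.667%). TP63 had none within 1 kb of its start site in any compared library. All 6 leukocyte markers, 4 of 5 endothelial and 4 of 5 fibroblast markers had no promoter peak in any TGFB + EGF or EGF library. The exceptions were KDR, with a promoter peak in 7 of 8 EGF libraries, and DCN, with one in 2 of 8. No site near the 3 lists' genes was called in the deep libraries.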

How the data were processed

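ATAC-seq (Omni-ATAC) was run on MCF10A cells, and 42 peak lists were analysed, 6 with TGFB + EGF and 8 with EGF. Per the labels and the study's methods, the authors trimmed reads (Trimmomatic 0.36.5), aligned them to hg38 (Bowtie2 2.3.4.1), removed duplicates with Picard and called peaks in each library separately with MACS2 (2.1.1.20160309.5) at q 0.01 without a control. The labels state that some libraries were too dilute to be brought to the common concentration, without naming them. Deposited per peak were a fold enrichment over local background (a ratio), −log10 p and −log10 q values, a score of 10 times −log10 q, and positions in bp. They hold no read counts, so depth per library is unknown and no counting interval can be given. No library's values were pooled.

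Overlapping peaks on the 24 primary chromosomes were merged into 167221 sites, of which 129344 were open in at least 2 libraries. Genes came from GENCODE 44 (19654 protein-coding genes). Detection minus the value set by each library's rate and each site's frequency was fitted with limma 3.58.1 (R 4.3.3) over 13 groups, averaging 24 h and 48 h, and with thresholds of 0.01 for the p-value after Benjamini-Hochberg correction and 0.5 for the difference. The same test was run on presence among each library's 3500 strongest peaks and on the 34 libraries with more than 30000 peaks. On simulated data without any planted change this last test still called sites, so its calls are descriptions. Motif deviations (32 motifs, 201-base windows) and 6 library measures were tested by exact permutation within time, two-sided, at an adjusted p of 0.05. Named sites were the 12 gained and 8 lost with the smallest p per fit, plus 12 genes always looked up and called sites near 12 gene lists (within 50 kb). Members and lists were chosen with earlier results of these data known. Alternatives changed normalization, thresholds, numbers of strongest peaks, libraries and the replicate block. Some sites that this rule names are not reported here.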

Additional observations from a re-analysis of the deposited data

Results flagged for a closer look

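In a group of 4 libraries, 1 far from the others was marked where its gap exceeded the 95% critical value of Dixon's test, and chance marks about 1 in 20 of the 28 groups and measures tested. The median fold enrichment of the strongest peaks was 15.6 in EGF 48H C, against 13.7 to 13.9 in the other EGF 48H libraries. The share of strongest peaks in sites open in at least 35 libraries was 94.5% in EGF 24H B (96.6% to 96.7% in the others) and 95.0% in EGF 48H D (97.6% to 98.0%).

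Peaks outside the 24 primary chromosomes enter no comparison. They made up 6.51% and 7.40% of peaks in TGFB + EGF 24H B and C and 2.94% and 10.2% in 48H A and B, above the range of 2.12% to 2.43% in EGF libraries. These are the 4 TGFB + EGF libraries with 30000 peaks or fewer. In the deep libraries the values were 2.09% and 1.96%.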

How the results depend on the processing

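The SMAD palindrome stayed higher with TGFB + EGF under every alternative run (53.4 to 99.8). The highest value is that among strongest peaks alone, where 27 tested sites hold the palindrome. There the 6 TGFB + EGF libraries ran from -9.73 (24H C) to 157 (24H A), each above every EGF library of its time. Other libraries lay within that range, such as OSM 48H A (88.6), PBS 24H B (76.5) and OSM 24H A (56.2). The separation from other groups was therefore not seen in that setting. Of the single-value results, the promoter share ranged from -2.40 to 0.387 with 1 library left out and changed sign without TGFB + EGF 48H B (0.387), and the IRF deviation did so in the deep libraries (-5.45) and without libraries that failed the study's quality control (-1.84). AP-1, not called over all libraries, went from -11.9 to 8.38 and 8.33 in the same settings, and RUNX, also not called, to 8.35 in the deep libraries. The cause was not tested. The count of motifs was 20, and 17 to 28 with 1 library left out, and the count of library measures stayed at 5. Same-lettered libraries did not pair (correlation of their deviations -0.0464 to 0.0841, 3 of 6 best with their own letter). With the replicate block, 0 motifs and 0 measures passed, since its smallest p is 0.03125 (palindrome 64.5, adjusted p = 0.0714, exact sign-flip test). The block gave 1 called site over both times, 14 at 48H (11 gained, 3 lost), and 239 gained and 189 lost strongest peaks.

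Over all libraries the 3 called sites became 22 at an adjusted p below 0.05, 4374 (68 gained, 4306 lost) with unadjusted detection, 0 in a fit of the 14 compared libraries (5122 at an unadjusted p below 0.05), 588 (565, 23) with array weights and 53 (49, 4) on log2 fold enrichment, and 0 to 128 with 1 library left out. At 24H 1 site became 6 (1, 5) with unadjusted detection, 0 at a −log10 q of at least 5, 0 with compared libraries only, and 0 to 138 with 1 left out. At 48H 23 became 59 (2, 57), 0 with compared libraries only, and 1 to 374. The time difference stayed at 0.

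In the deep libraries 1229 calls became 2096 (1612, 484) at an adjusted p below 0.05, 612 (526, 86) with sites open in at least 3 libraries, 2276 (1734, 542) on log2 fold enrichment, and 114 to 1194 with 1 library left out. Without TGFB + EGF 24H A, 245 gained and 277 lost sites were called and 176 of the 1229 were kept. Without 48H C there were 93 and 21, and 20 were kept. The remaining lone library is assumed to vary like the other groups. Among strongest peaks 596 became 1653 (903, 750) at an adjusted p below 0.05, 352 (127, 225) with compared libraries only, 60 for the 500 and 337 for the 2000 strongest, 300 (214, 86) ranked by fold enrichment, 2605 (1862, 743) for the 20000 strongest, 320 (253, 67) in deep libraries, and 329 to 1146 with 1 left out. Without 24H A they were 766 and 380, without 24H B 201 and 128, without 24H C 229 and 137, without 48H B 229 and 123, and without 48H C 593 and 359. Mean adjusted detection over the TGF-beta target sites differed by -0.00507 over all and by -0.0170 over deep libraries.

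Peak number, unknown depth and treatment cannot be told apart in 4 of the 6 TGFB + EGF libraries. The deep comparison has 1 library per time. A site without a peak is not shown to be closed.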
